A study of Caenorhabditis elegans with 2 samples.

Results

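The mir-51 family of Caenorhabditis elegans comprises 6 microRNA genes, annotated as cel-mir-51, cel-mir-52, cel-mir-53, cel-mir-54, cel-mir-55 and cel-mir-56, out of 261 microRNA genes on the nuclear chromosomes. The family was selected on the peaks beside its genes in these lists, so the presence and signal of those peaks describe it and were not tested. Binding of PES-1, a forkhead transcription factor, was measured by ChIP-seq in 2 biological replicates of whole early embryos, aged 1 hour after egg bleaching. Both came from strain RW12239, whose CRISPR allele st12239 fuses TY1, EGFP and 3xFLAG to the endogenous pes-1 gene on chromosome IV. Chromatin was recovered with an antibody against GFP. There is no second group, and no strain without the tag was analysed here. In the authors' processing both replicates share 1 control file, which was not itself analysed here. Whole embryos were used, so the cells that gave a peak cannot be told.

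MicroRNAs are short RNAs that Dicer cuts from hairpin precursors and that an Argonaute protein carries to messenger RNAs. Pairing of the seed, bases 2 to 8 of the mature RNA, with sites in the messenger RNA leads to its repression. The mir-51 family is abundant from embryogenesis onwards. Its members act redundantly, and loss of the whole family is lethal to the embryo, with defects that include failed attachment of the pharynx. Related sequences occur across animals as the miR-99 and miR-100 family.

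The mature sequences show what makes these genes a family. Read from the RefSeq copy of the WBcel235 assembly at the annotated mature positions, with the seed in capitals, they are as follows.
mir-51: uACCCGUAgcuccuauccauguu
mir-52: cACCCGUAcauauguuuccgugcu
mir-53: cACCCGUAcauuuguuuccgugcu
mir-54: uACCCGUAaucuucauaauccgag
mir-55: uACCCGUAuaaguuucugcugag
mir-56: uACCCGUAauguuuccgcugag
All 6 share the seed ACCCGUA, and no other annotated C. elegans microRNA gene gave a mature RNA with it. In mir-51, mir-52 and mir-53 the family RNA lies in the 5' arm of the hairpin, and in mir-54, mir-55 and mir-56 it lies in the 3' arm. The mature RNAs of mir-52 and mir-53 were identical in 23 of 24 aligned positions and those of mir-55 and mir-56 in 20 of 23. Over all 15 pairs the identity of the mature RNAs ran from 57.7% to 95.8%, with a median of 64%.

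The genes stand in 3 places. On chromosome IV, mir-53 (chrIV:11027593-11027691) and mir-51 (chrIV:11026013-11026112) lie on the minus strand, 1480 bases apart, between the coding genes hrg-5 and alh-3. hrg-5 belongs to a family of heme transporters. Also on chromosome IV but 3006316 bases away, mir-52 (chrIV:14034008-14034107, plus strand) stands 8488 bp from the nearest coding gene, Y37A1B.7, in a region rich in annotated noncoding RNAs. On chromosome X, mir-54 (chrX:13144996-13145094), mir-55 (chrX:13144827-13144924) and mir-56 (chrX:13144691-13144787) follow each other on the minus strand with gaps of 71 and 39 bases. They lie in intronic sequence of F09A5.3, a coding gene on the opposite strand. A further annotated microRNA gene that is no member, cel-mir-55b (chrX:13144830-13144919), lies on the plus strand within the bounds of mir-55. For each member the annotated unit is a hairpin of 97 to 100 bp. Positions below are therefore relative to the 5' end of the hairpin and not to the start of a primary transcript.

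Peaks stood beside mir-51, mir-52, mir-54 and mir-53, in falling order of signal. From mir-51 to mir-53 the pooled signal differed 13.1-fold, that of replicate 1 differed 20.3-fold and that of replicate 2 differed 11.2-fold. In the conservative list, which holds the 1452 peaks reproducible between the replicates at an irreproducible discovery rate (IDR) of 0.01, 3 of the 6 genes, mir-51, mir-52 and mir-54, had a summit within 200 bp. Among all 261 microRNA genes the share was 5.75% (15 genes, 95% Wilson interval 3.51 to 9.26%). The wider window of 1000 bp took in mir-55 and mir-56 too, giving 5 of 6 genes against 13.4% of all microRNA genes. Without the family, the shares were 4.71% and 11.8% of 255 genes. These 255 still include cel-mir-55b, which has the summits of the chromosome X cluster within 1000 bp. With all 261 genes, family included, chained with their neighbours into 214 loci, the shares were 5.14% and 9.81%. Nothing about the family is read from these shares, since its peaks were why it was chosen. Neighbouring genes share summits, so the count of distinct summits is smaller. It was 4 within 1000 bp, with 1 at mir-51, 1 at mir-52 and 2 at the mir-54, mir-55 and mir-56 cluster. The optimal list, derived from both replicates with 1775 nuclear peaks, added 1 summit at mir-53, so that 4 of 6 genes had one within 200 bp (6.13% of all microRNA genes) and 6 of 6 within 1000 bp (14.2%).

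Each replicate's own thresholded list gave the same 3 genes within 200 bp and the same 5 within 1000 bp. The shares of all microRNA genes were 3.83% and 11.9% in replicate 1, and 3.83% and 9.96% in replicate 2. Distinct summits within 1000 bp numbered 3 in replicate 1 and 5 in replicate 2, which added a second summit at mir-52 and the one behind mir-56. The rankings before any threshold hold from 74874 to 80932 peaks each and reach most microRNA genes at the wider window. In the ranking behind the conservative list 5 members had a summit within 200 bp (45.6% of all microRNA genes) and 6 within 1000 bp (64%). In that behind the optimal list these were 5 (43.7%) and 6 (63.6%). The ranking of replicate 1 gave 4 (42.1%) and 6 (72.4%), and that of replicate 2 gave 5 (41.8%) and 6 (65.9%). All these counts were made after summits at most 200 bp from a stronger one were merged into it. In replicate 1 this removed a ranked summit 147 bp from mir-56, with a signal of 8.75.

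**Figure D1:**
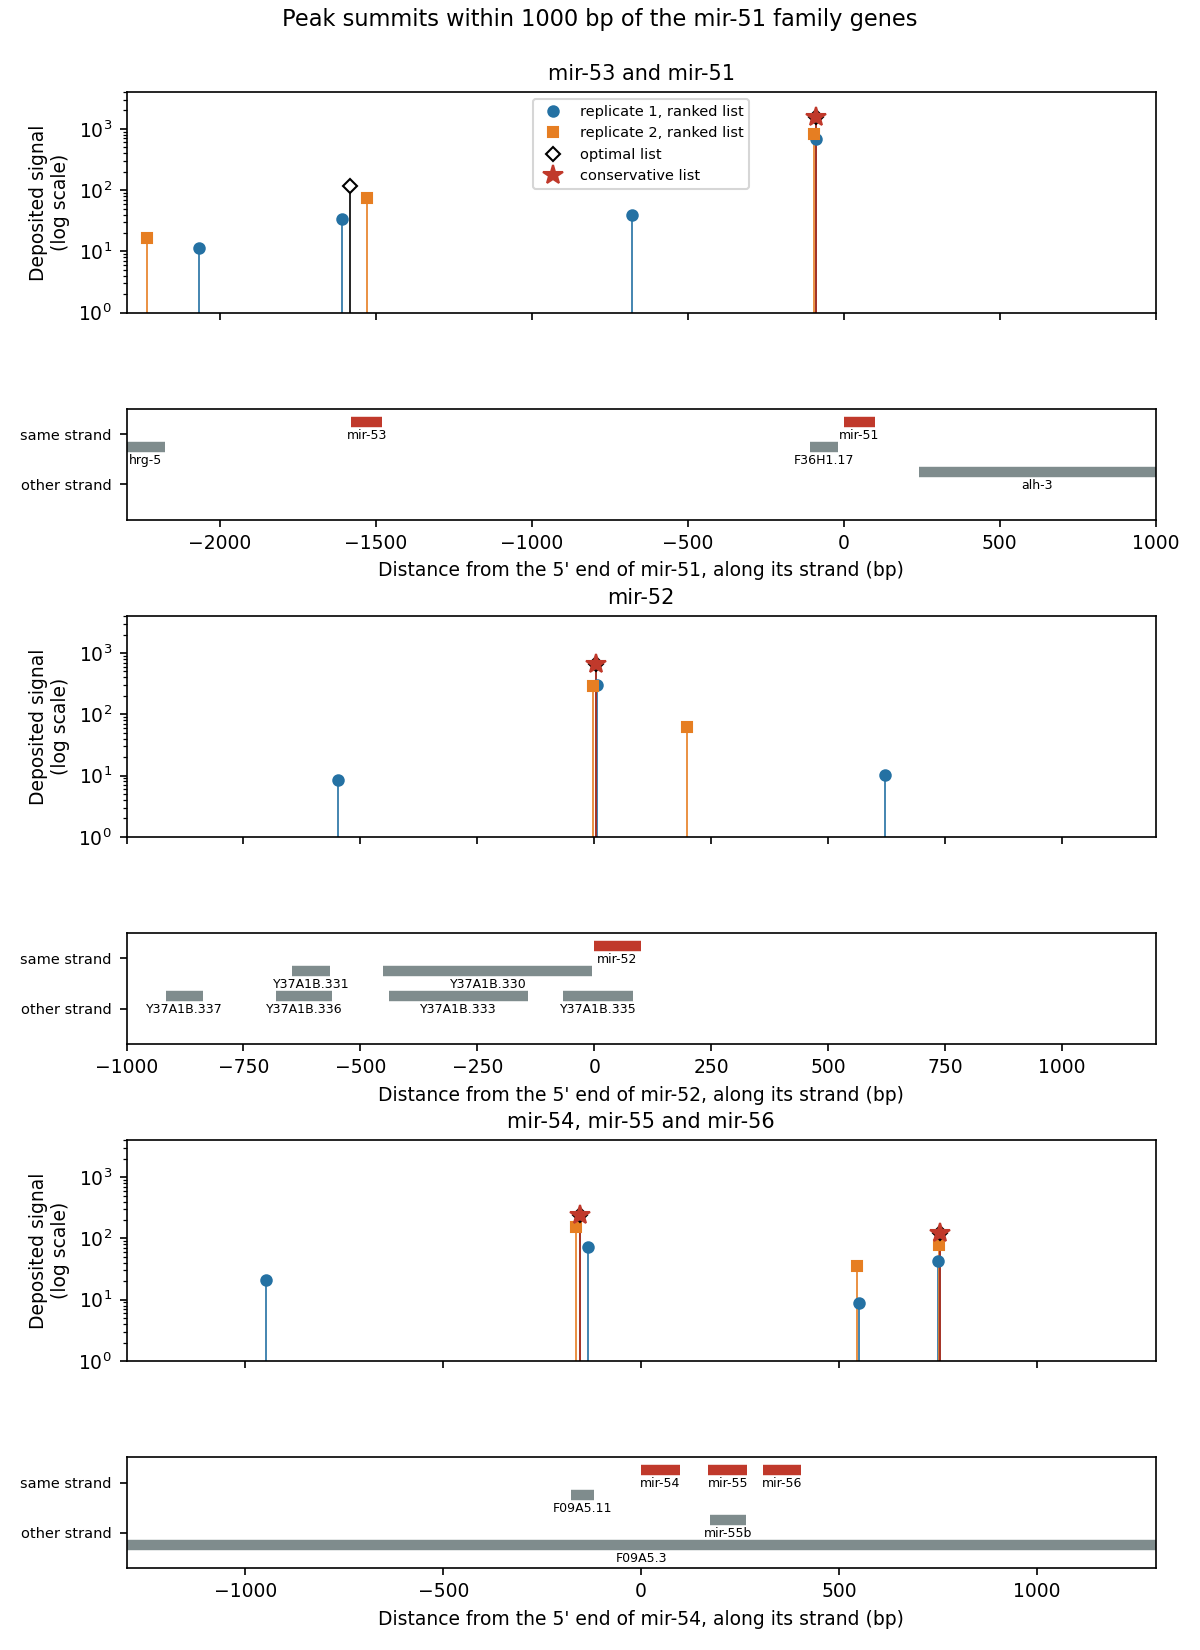
Summits within 1000 bp of the mir-51 family genes, by distance in bp from the 5' end of mir-51, mir-52 or mir-54 along its strand (horizontal axes) and deposited signal on a log scale (vertical axes). Circles and squares are replicates 1 and 2, open diamonds the optimal list and stars the conservative list. Bars below each panel are annotated genes, in red for the family and in grey for others, with piRNA genes left out. The highest summits stand just before mir-51, at the start of mir-52 and before mir-54, with a weaker one after mir-56, and mir-53 has a diamond but no star.

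The mir-51 peak was the strongest of the family and one of the strongest of the whole list. Its deposited signal, the peak caller's own value per peak, was 691 in replicate 1 and 836 in replicate 2. In the list made from both replicates the signal was 1560, which placed it at rank 5 of 1452 conservative peaks. It also took rank 5 of 1019 nuclear peaks in the thresholded list of replicate 1 and rank 6 of 1164 in that of replicate 2. The peak spanned 575 bp, where 886 of the 1452 conservative peaks had the same width of 330 bp and 8 were at least 575 bp wide. The summit lay 88 bp upstream of the mir-51 hairpin in replicate 1 and 96 bp upstream in replicate 2.

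The mir-52 peak followed, with 303 in replicate 1 and 293 in replicate 2. The replicates thus hardly differed here, and none of their values reached those of mir-51. The pooled signal was 652, at rank 83, or 2.39-fold below mir-51. In contrast to mir-51, the summit stood at the hairpin's own 5' end, 6 bp inside the gene in replicate 1 and 2 bp before it in replicate 2. At 621 bp the peak was among the 4 widest of the conservative list. Within the same interval, replicate 2 alone listed a second summit, 199 bp after the 5' end, with a signal of 62.5.

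At the cluster on chromosome X, the stronger summit preceded all 3 genes. Replicate 1 gave a signal of 71.5 and replicate 2 one of 152, and the conservative list 239 (rank 398 of 1452). In the replicates' own thresholded lists it took rank 691 of 1019 in replicate 1 and rank 352 of 1164 in replicate 2. It lay 135 bp upstream of the mir-54 hairpin in replicate 1 and 164 bp upstream in replicate 2, and 154 bp upstream in the conservative list. The conservative interval was 90 bp wide, and only 16 conservative peaks were as narrow or narrower, whereas the replicates' own intervals at this place were 260 and 324 bp wide. That interval overlaps none of the 3 hairpins. The summit was 324 bp from mir-55 and 461 bp from mir-56.

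A second, weaker summit lay behind the cluster. It was 351 bp past the end of mir-56 in the conservative list, with a signal of 122 (rank 952). Its values were 42.1 for replicate 1 and 77.0 for replicate 2, and the summits of the replicates were 3 bp apart. This summit passed the threshold in the list of replicate 2 on its own, with an IDR of 0.00818, but not in that of replicate 1, where its IDR was 0.818. No summit lay within 200 bp of mir-55 in any list. For mir-56 the closest was an unthresholded one 142 bp away with a pooled signal of 32.8. Its IDR was 0.684 in the ranking behind the conservative list and 0.240 in that behind the optimal list.

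mir-53, whose mature RNA is nearly that of mir-52, had the weakest peak and stood just outside the conservative list. Replicate 1 had 33.9 and replicate 2 had 74.9, against 119 in the optimal list (rank 1021 of 1775). In the ranking behind the conservative list, before a threshold, its IDR was 0.0302, above the 0.01 applied. The IDR in the ranking behind the optimal list was 0.00274. The replicates also placed it less exactly: the summit was 31 bp upstream of the hairpin in replicate 1 and 49 bp inside it in replicate 2, a shift of 80 bp, while at mir-51 and mir-52 the shift was 8 bp. With regard to distance, the nearest conservative summit beyond the 1000 bp window was 1120 bp upstream of mir-52, with a signal of 83.0 (52.3 in replicate 1 and 69.0 in replicate 2).

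The order of the 5 summits was the same in both replicates: mir-51, mir-52, mir-54, the summit behind mir-56, and mir-53. Between mir-51 and mir-52, and between mir-52 and mir-54, the values of the replicates did not overlap. Values of the 3 weaker ones overlapped when compared across replicates. The summit behind mir-56 in replicate 2 exceeded mir-54 in replicate 1. Likewise, mir-53 in replicate 2 exceeded the summit behind mir-56 in replicate 1. Within each replicate, however, mir-54 exceeded the summit behind mir-56, 1.70-fold in replicate 1 and 1.97-fold in replicate 2. That summit exceeded mir-53 by 1.24-fold and 1.03-fold. With 2 replicates in 1 group, no test of these differences was made. Signal per peak was not scaled between genes or lists in any way the sources state, and read depth was not analysed here.

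**Figure D2:**
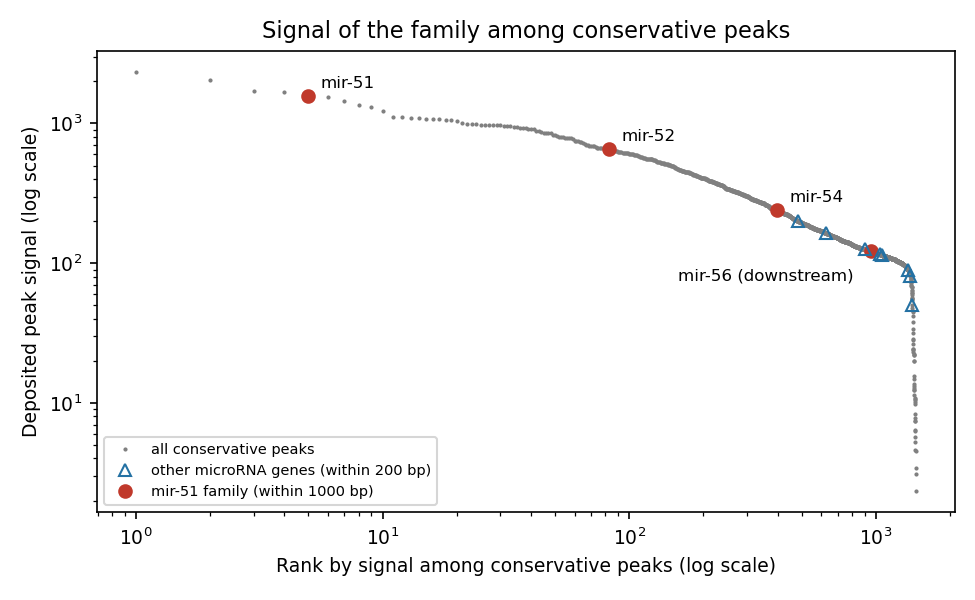
Deposited signal against rank for the 1452 conservative peaks (both axes on a log scale). Red points are the 4 summits within 1000 bp of the mir-51 family, at ranks 5, 83, 398 and 952, and triangles are the 8 other summits within 200 bp of a microRNA gene, which lie at signals of 201 or less.

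The replicates differed more at the weaker peaks of the family than at the stronger ones. Across the 1402 conservative summits found in both replicates' ranked lists, the median log2 ratio of replicate 2 to replicate 1 was 0.32 (SD 0.40). The same difference was 0.28 at mir-51 and -0.05 at mir-52. It was 1.09 at mir-54, a level that 97.1% of conservative summits stayed below, and 0.87 behind mir-56. At mir-53 it was 1.14. Among the 100 conservative summits closest to mir-54 in signal, 90% lay between -0.37 and 1.05 log2 units, so mir-54 was just above that range. For mir-53 the same range was -0.32 to 0.90, and mir-53 was further above it. mir-51, mir-52 and the summit behind mir-56 lay within theirs.

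**Figure D3:**
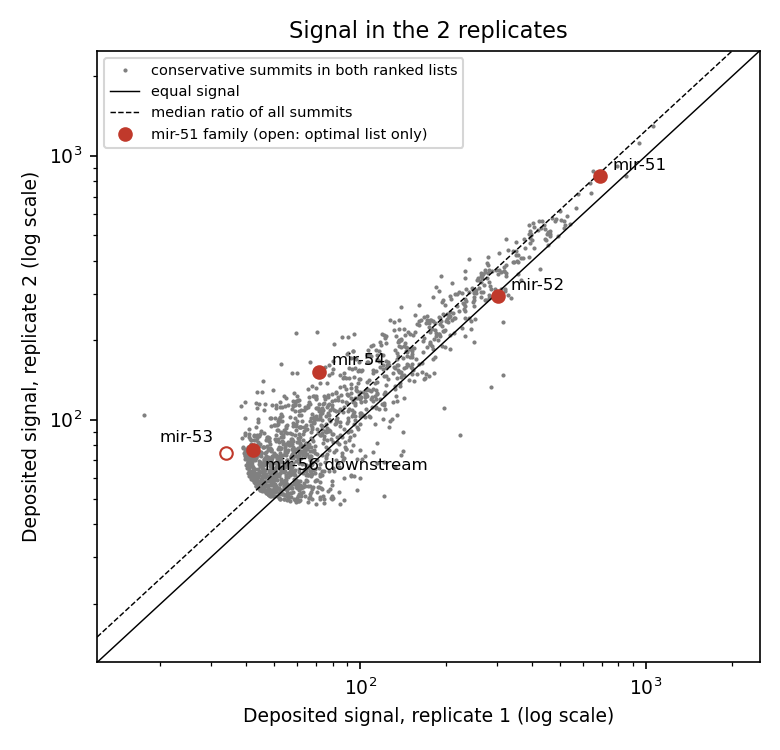
Deposited signal in replicate 1 (horizontal) and replicate 2 (vertical), both on a log scale, for 1402 conservative summits (grey) and the 5 summits of the mir-51 family (red, open for mir-53, which is in the optimal list only). mir-51 and mir-52 sit at 1.21 and 0.967 times equal signal, and mir-54 and mir-53 at 2.12 and 2.21 times.

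Among all microRNA genes, the 3 strongest conservative summits within 200 bp by pooled signal belonged to mir-51, mir-52 and mir-54. In replicate 1, however, mir-54 (71.5) was below mir-36 (83.5) and mir-4936 (82.8). The conservative list held 11 distinct summits within 200 bp of a microRNA gene. The 8 that were nearest to other genes had signals from 50.3 to 201, with a median of 115, against 147 over all 1440 distinct conservative summits. None of these 11 had a tRNA, snoRNA, snRNA or rRNA gene within 200 bp. For comparison, 46.1% of 612 tRNA genes and 18.8% of 346 snoRNA genes had a conservative summit within 200 bp. The tRNA gene nearest to the mir-51 summit was 205365 bp away and that nearest to mir-54 was 23917 bp away.

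The microRNA genes with the signals closest to mir-51 over the 2 replicates were, apart from its own family, mir-36, mir-4936 and mir-90. The measure was the distance in log2 units over the 2 replicates, and it was 4.12, 4.34 and 4.99. Within the family it was 1.92 for mir-52 and 4.09 for mir-54. Even the closest of the others were therefore far below mir-51. The mir-36 summit, at 83.5 in replicate 1 and 122 in replicate 2, lay inside that gene and within 200 bp of 4 genes of the mir-35 family, the other large family of embryonic microRNAs. That family had a conservative summit within 200 bp of 4 of its 8 genes and within 1000 bp of all 8, with 3 distinct summits. Of the other conserved families, none of 6 genes of the let-7 family (let-7 itself not analysed here), 4 of the mir-58 family and 2 of the lin-4 family had one within 200 bp, and 1 of the mir-58 family had one within 1000 bp.

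**Figure D4:**
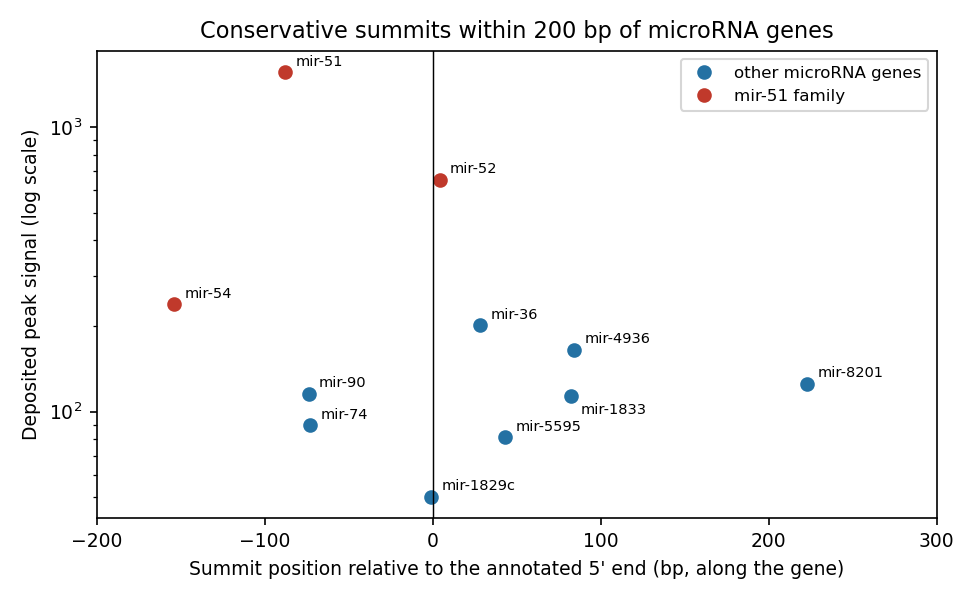
Position of each conservative summit within 200 bp of a microRNA gene relative to the gene's 5' end (horizontal, bp along the gene) against its deposited signal (vertical, log scale), named by the nearest gene. The mir-51 family is in red and the 8 other summits are in blue. mir-51 and mir-54 lie upstream at -88 and -154 bp and mir-52 at 4 bp, and the others spread from -74 to 223 bp.

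The summits at mir-51 and mir-54 fell inside short noncoding RNA genes annotated just upstream on the same strand. The mir-51 summit was 19 bp into F36H1.17 (chrIV:11026131-11026219, 89 bp), and the mir-54 summit was 23 bp into F09A5.11 (chrX:13145213-13145271, 59 bp). The mir-52 summit was inside a noncoding RNA gene that runs across the start of mir-52 on the other strand (chrIV:14033942-14034090), and 8 bp past the end of another on the same strand (chrIV:14033557-14034004). Annotated genes of this class, 7764 in all, covered 1.09% of nuclear bases, and 255 of the 1440 conservative summits (17.7%) lay inside one.

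The sequences around the summits show what the peaks share and where they differ. Each is the 101 bp centred on the summit, read from RefSeq's WBcel235 (ce11) on the strand of the microRNA gene, plus for mir-52 and minus for the others.
mir-51 (chrIV:11026150-11026250): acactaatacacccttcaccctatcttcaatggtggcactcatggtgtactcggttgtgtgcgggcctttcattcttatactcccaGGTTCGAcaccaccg
mir-52 (chrIV:14033962-14034062): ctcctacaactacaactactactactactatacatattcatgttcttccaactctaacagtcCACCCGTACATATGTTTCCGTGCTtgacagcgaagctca
mir-53 (chrIV:11027646-11027746): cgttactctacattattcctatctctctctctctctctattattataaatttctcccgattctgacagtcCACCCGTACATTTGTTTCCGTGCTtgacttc
mir-54 (chrX:13145198-13145298): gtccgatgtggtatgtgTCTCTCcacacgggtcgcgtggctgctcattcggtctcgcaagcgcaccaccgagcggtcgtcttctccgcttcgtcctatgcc
Capitals mark the word GGTTCGA at mir-51, the mature microRNA at mir-52 and mir-53, and TCTCTC, the reverse complement of GAGAGA, at mir-54. The windows of mir-52 and mir-53 shared a run of 17 bp, which covers the start of the mature RNA. The longest run shared by any other pair of the 5 windows was 8 bp. The G and C content was 50.5% at mir-51, 41.6% at mir-52, 39.6% at mir-53, 62.4% at mir-54 and 60.4% behind mir-56, and the conservative windows as a whole had a median of 50.5%.

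At mir-51 the window held a word known from tRNA genes. GGTTCGA is the core of the B box, the internal promoter element that RNA polymerase III uses at tRNA genes. It began 36 bp past the mir-51 summit and 52 bp before the hairpin, at base 56 of the 89 in F36H1.17. The longer B box, which extends GGTTCGA by any 2 bases and CC, matched at the same place. Searched on both strands, GGTTCGA was in 181 of 1440 conservative windows (12.6%), and in 0.725% of 100275 windows of the same length taken every 1000 bp along the genome. For the longer B box these shares were 9.65% and 0.13%. On the strand of the gene, the longer B box was in 394 of 612 tRNA genes (64.4%), in 24 of the 7764 genes of the class of F36H1.17 (0.309%) and in 1 of 261 microRNA genes. Neither form was in the windows of the other 4 summits of the family. Among the 8 summit windows at other microRNA genes, GGTTCGA was in 2 and the longer B box in 1.

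The forkhead core GTAAACA was in none of the 5 windows on either strand, against 1.25% of conservative windows and 1.19% of genome windows. GAGAGA was in the windows of mir-53, where 6 overlapping matches made up a CT repeat, and of mir-54, against 12.4% of conservative and 5.12% of genome windows. CTTGCGC was in none, against 4.31% and 0.297%. A match is a match of letters, and none was tested as a binding site.

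The family loci could be told apart by sequence at these word lengths. Each of the 6 hairpins occurred once in the genome as an exact copy. Identity between hairpins ran from 45.0% to 79% over the 15 pairs, with mir-52 and mir-53 the most alike. No word of 36 bp or of 50 bp within any of the 5 peak intervals occurred elsewhere on the nuclear chromosomes, on either strand. Read length was not analysed here.

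Peaks were also counted at 15 genes of the microRNA pathway, a list of processing factors, Argonaute partners, turnover factors and cofactors with 1 reported target. Of these, 3 (20%) had a conservative summit in the promoter, from 1000 bp upstream to 200 bp downstream of a 5' end, against 4.09% of 19973 protein-coding genes. The count was 2 in the optimal list, which lacks ain-1, 1 in the list of either replicate alone, and 0 at an IDR of 0.001. For those settings the share of all protein-coding genes was not computed, so these counts have no background. The 3 genes of the conservative list were alg-2, cgh-1 and ain-1. alg-2 encodes one of the Argonaute proteins of the microRNA pathway. cgh-1 encodes a DEAD-box RNA helicase of RNA granules, and ain-1 encodes a GW182-type partner of the Argonautes. The alg-2 summit had a signal of 157, with 59.6 in replicate 1 and 95.9 in replicate 2. That of cgh-1 had 112, with 41.9 and 59.3. For ain-1 it was 55.1, with 48.3 in replicate 1 and no summit within 200 bp in the ranked list of replicate 2. All 3 were far below mir-51 and mir-52. The genes of the nucleases drsh-1 (Drosha) and dcr-1 (Dicer), of the Drosha partner pash-1 and of the other Argonaute, alg-1, had none. Nor did nhl-2 and lin-28, which encode cofactors or regulators of microRNAs, or cdh-3, a cadherin gene reported as a target of the family. A wider promoter, from 2000 bp upstream to 500 bp downstream, took in a conservative summit at xrn-2 with a signal of 237. For ain-1 it took in one of 110.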

How the data were processed

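Per the labels and the deposited file lists, ChIP-seq peaks of 2 replicates were called on ce11 against 1 shared control, with reproducibility from the IDR; aligner, caller and depths: not given in the sources used here. Each deposited list gives the IDR rescaled to a score, the caller's signal and a summit offset, and the deposited ranked lists give the -log10 of the global IDR. The lowest deposited score in the thresholded lists was 830, so the threshold was 0.01. Only nuclear peaks were used. For counts of distinct summits and of genes with a summit, those at most 200 bp from a stronger summit were merged into it. Replicate signals are those of the nearest summit within 200 bp in each ranked list. Genes were from Ensembl release 115, sequences from RefSeq WBcel235 (same assembly as ce11), with Python 3.11.15 and Biopython 1.88. Intervals are 95% Wilson intervals and cover counting only. The procedure was tested on simulated data. Members, gene lists and motifs were chosen with earlier results of these data known. Named genes were the members, neighbours, listed pathway genes with promoter peaks, and microRNA genes with the closest signals or the strongest peaks. Of the listed families, let-7 itself and mir-1834 of the mir-58 family were not analysed here.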

Additional observations from a re-analysis of the deposited data

How the results depend on the processing

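Of 52 recomputed values, 37 stayed within 1.5-fold of the reported count or within the replicate SD. Members within 200 bp numbered 5 in the full ranked list. With a window of 500 bp they numbered 5, and with one of 100 bp 2 (4.21% of all microRNA genes). Where the peak interval had to overlap the gene they numbered 2, and no share was computed for that setting. Distinct summits numbered 8 in the ranked list and 3 to 5 with one replicate left out. The share of all microRNA genes was 3.07% at an IDR of 0.001, 45.6% in the ranked list, 9.58% within 500 bp and 13.4% within 1000 bp. Pathway genes with a promoter summit numbered 0 at an IDR of 0.001, 10 in the ranked list and 1 with either replicate left out. The matching shares of all protein-coding genes were not computed, so nothing about the pathway is read from these counts. With one replicate left out, the mir-51 signal was 691 to 836, its summit lay at -96 to -88 bp, and the mir-52 summit at -2 to 6 bp. No scaling of signal between lists is stated, and the cause of these shifts was not tested. An IDR of 0.05, chosen after seeing the data, brought mir-53 in, giving 4 of 6 members, against 8.05% of all microRNA genes. No paired analysis was possible because there is 1 group.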
